A study of Mus musculus with 4 samples.

Results

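Adenosine and purine receptors and the ectonucleotidases that feed them are represented here by 10 genes among the 29655 genes of the arrays: Adora1, Adora2a, Adora2b, Adora3, P2rx1, P2rx7, P2ry1, P2ry14, Nt5e and Entpd1. They were chosen by gene name, and every non-control probe that carries one of these names was taken, 13 in all. Adora2b has 2 probes, P2rx7 has 3, and the other members have 1 each. Where a gene has several, the one that was brightest on average stands for it and the others are given beside it.

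The samples were Swiss 3T3 cells, a mouse fibroblast line, on 4 single-colour Agilent arrays. WT is Lpar1+/+ and KO is Lpar1-/-, made with CRISPR/Cas9 as 1 single-cell clone, so that a difference between clones and the loss of Lpar1 cannot be told apart. Lpar1 is a receptor for the signalling lipid lysophosphatidic acid. Each genotype was labelled 0 h and 24 h of coculture with WT mast cells grown from bone marrow, in the presence of the mast cell growth factor SCF. Each group has 1 array of RNA pooled from 3 samples, so there is no spread between replicates and no test. What cells the 0 h cultures held is not given in the labels.

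Cells release ATP and other nucleotides when stressed or stimulated, and these act on P2X channels and P2Y receptors. Entpd1 (CD39) strips ATP and ADP to AMP on the cell surface, and Nt5e (CD73) turns AMP into adenosine, which acts on the 4 adenosine receptors. Mast cells are a classical target of adenosine: in rodents the A3 receptor strengthens their degranulation. Fibroblasts are known for A2B signalling and for making adenosine through CD73.

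All signals are given as log2 of the processed spot intensity minus the array's 75th percentile, so 0 is that percentile. Errors are standard errors (SE) of a log2 difference from the scanner software's own spot error and cover neither culture nor labelling. Differences of 2-fold or more are called, which describes these arrays and is no test. A probe that only 1 array of a comparison showed well above background has an at-least fold. There the bright reading is divided by the dim one, or by the faintest reading well above background on the dim array where that is greater. That faintest reading was −7.35 and −6.77 at 0 h and −6.16 and −6.69 at 24 h. Where readings are listed without array names, they follow this order throughout: WT then KO at 0 h, WT then KO at 24 h.

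Lpar1 itself, the targeted gene, has 1 probe, which read −3.20 (WT) and −3.43 (KO) at 0 h and −3.15 and −3.61 at 24 h, well above background on all arrays. Genotypes differed there by less than 2-fold, so its transcript level does not tell the KO arrays apart, and the probe was not placed relative to the edited exon. Spots well above background made up 62.1% (KO 24 h) to 72.7% (WT 0 h) of the non-control spots, and 17116 genes were well above background on all 4 arrays. Of 20 mast cell markers, 19 (WT) and 20 (KO) were well above background at 0 h, and 15 and 13 at 24 h. Their summed linear signal, in multiples of the 75th percentile, was 464 (WT) and 665 (KO) at 0 h. At 24 h it was 1.49 in WT and 17.0 in KO, or 2.43 in KO without Il1rl1, which read 3.86 on the log2 scale. Of the markers that define mast cells, Cpa3 and Fcer1a were well above background on all arrays, Ms4a2 on neither 24 h array and Kit on KO 24 h but not on WT 24 h. The 18 pan-leukocyte markers summed to 90.1, 184, 0.739 and 0.75, and 11 macrophage markers to 4.25, 4.73, 5.07 and 5.82. The 20 fibroblast markers summed to 275, 228, 370 and 357, and 18 or 19 of them were well above background on each array. The arrays labelled 0 h thus held abundant mast cell transcripts beside those of fibroblasts, and the 24 h arrays little. In RNA of mixed cultures, fewer cells of a type and less RNA per cell cannot be told apart.

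Of the 10 genes, 8 were well above background on both 0 h arrays, and most of them were at or near background on the 24 h arrays. Adora2b was far above background at both times, and P2rx1 stayed well above it at 24 h, at −4.15 (WT) and −3.87 (KO). Nt5e was seen well above background on KO 24 h only. Adora1 stayed at background on every array. Of the 10, 3 were well above background on all 4 arrays (Adora2b, Adora3 and P2rx1), 3 on 3 arrays, 2 on 2, 1 on 1 and 1 on none.

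Upstream sequences are shown for Adora3, P2rx1 and P2ry14, because a short motif was found before the first start listed for each. The matches before another start of P2rx7 and of P2ry14 are counted but not shown. RefSeq's promoter table (GRCm38.p6) holds 15 start sites for 9 of the 10 genes and none for Adora2a, and the 250 bases before each start were searched on both strands. Motifs were AGATAA (the core bound by GATA factors), GAGGAAGT (a PU.1 core), CACGTG (an E-box) and TGACGTCA (a cyclic AMP response element), of which none overlaps another. Capitals mark a match to a motif or its reverse complement.

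Adora3, chr3:105904171-105904420, plus strand, with GAGGAAGT on the opposite strand: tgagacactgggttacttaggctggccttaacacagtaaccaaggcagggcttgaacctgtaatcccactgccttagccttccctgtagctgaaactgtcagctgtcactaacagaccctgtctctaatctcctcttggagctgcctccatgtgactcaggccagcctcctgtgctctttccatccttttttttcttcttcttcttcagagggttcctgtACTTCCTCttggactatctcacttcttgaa
P2rx1, chr11:72998895-72999144, plus strand, with AGATAA on the opposite strand: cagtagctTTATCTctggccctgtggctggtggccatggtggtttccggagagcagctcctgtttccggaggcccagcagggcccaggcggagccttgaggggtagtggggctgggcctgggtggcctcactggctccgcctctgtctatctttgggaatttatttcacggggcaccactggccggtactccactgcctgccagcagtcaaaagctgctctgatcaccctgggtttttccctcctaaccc
P2ry14, the start site farthest upstream, chr3:59153493-59153742, minus strand, with AGATAA on the opposite strand: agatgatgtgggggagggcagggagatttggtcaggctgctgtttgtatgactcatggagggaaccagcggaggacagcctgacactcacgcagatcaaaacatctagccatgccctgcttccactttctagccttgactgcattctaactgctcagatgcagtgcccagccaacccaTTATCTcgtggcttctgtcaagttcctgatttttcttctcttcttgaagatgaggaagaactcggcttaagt

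AGATAA was found before 4 of the 15 starts, in 3 genes (P2rx1, P2rx7 and P2ry14), and in 9.99% of the 32851 promoter windows of this length. GAGGAAGT was found before 1 start, that of Adora3, and in 2.44% of all windows. CACGTG and TGACGTCA were found before none of the 15, and in 6.02% and 1.55% of all windows. A match says only that these letters stand there.

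Among the adenosine receptors, Adora3 differed most between the times. Its probe (mm9, chromosome 3, bases 105711212 to 105711271) read 3.88 (WT) and 4.69 (KO) at 0 h, then −5.80 (WT) and −6.21 (KO) at 24 h. In signal units this was 17619.1 and 25948.6 at 0 h against 16.7 ± 3.3 and 10.1 ± 1.86 (spot error) at 24 h, on WT and KO in turn. Both 24 h readings lay within 0.5 log2 of the lowest signals well above background. From 0 h to 24 h this is a log2 difference of −9.68 (SE 0.32) for WT and −10.91 (SE 0.30) for KO. It was the 7th lowest of 19182 genes measured in WT and the 3rd lowest of 17856 in KO. With normexp, a background correction that keeps dim signals above 0, followed by quantile normalization, the differences were −7.75 and −8.57. Normexp here also adds an offset of 50 units to every signal, which shrinks differences that involve dim readings. The genes whose 4-array pattern was nearest, after each gene was centred on its mean, were Gzmb, Alox5 and Rab44. Their root mean square distances from Adora3 were 0.27, 0.308 and 0.41 log2 among 17116 genes, and Gzmb and Rab44 are themselves on the mast cell marker list.

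Adora2a, a receptor that raises cyclic AMP and restrains inflammatory cells, was also bright at 0 h and near background at 24 h. Its probe (mm9, chromosome 10, bases 74797461 to 74797520) read 0.10 (WT) and 1.43 (KO) at 0 h, then −6.66 (WT) and −5.81 (KO) at 24 h. The WT 24 h reading was not well above background. Adora2a was at least 76.9-fold lower at 24 h in WT, and lower by −7.24 log2 (SE 0.27) in KO. With normexp these values were −4.13 and −5.14 log2.

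Adora2b, the low-affinity receptor that also raises cyclic AMP, was far above background on all 4 arrays and called lower at 24 h in KO. The brighter probe (mm9, chromosome 11, bases 62079834 to 62079893) read 1.75 (WT) and 2.31 (KO) at 0 h, then 1.36 (WT) and 1.07 (KO) at 24 h. From 0 h to 24 h the difference was −0.39 (SE 0.20) for WT, below 2-fold, and −1.24 (SE 0.20) for KO, past it. It was −2.57 in KO with the median level of 17 fibroblast markers subtracted from each array (fibroblast centring). That level was 1.21 at 0 h and 2.54 at 24 h in KO, a larger rise than the markers' median difference given below. The other probe (chromosome 11 from 62078754 to 62078813) read −0.08, 0.61, −0.64 and −0.68 in the same order, with differences of −0.56 and −1.29. Both probes thus gave the same order at 0 h and between times. At 24 h they differed between genotypes by −0.29 and −0.04, each with an SE of 0.20. The mast cell markers measured in KO had a median of −8.41 between the times, and the fibroblast markers 0.91.

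Adora1, which couples to Gi and lowers cyclic AMP, read −9.63, −9.06, −8.45 and −8.96. These values lie below the detection limit of every array and have no order. Its probe is on chromosome 1 from 136095833 to 136095892 (mm9).

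The ATP-gated channels P2rx1 and P2rx7 were both lower at 24 h. P2rx1, a fast channel of platelets and smooth muscle that is also known from mast cells, read −0.33 (WT) and 0.88 (KO) at 0 h, then −4.15 (WT) and −3.87 (KO) at 24 h (mm9, chromosome 11, bases 72828564 to 72828623). All 4 readings were well above background. Over 24 h the difference was −3.82 (SE 0.22) for WT and −4.75 (SE 0.21) for KO, smaller than the mast cell markers' medians of −8.14 and −8.41. With normexp they were −2.76 and −3.71, and with fibroblast centring the KO value was −6.08. The nearest patterns among 17116 genes were those of Rhof, Tbc1d10c and Lair1, at root mean square distances of 0.058, 0.066 and 0.073 log2. These pattern matches rest on 4 arrays.

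P2rx7, the channel that opens at high ATP and starts inflammasome signalling in leukocytes, read 1.82 (WT) and 2.91 (KO) at 0 h, then −7.76 (WT) and −4.45 (KO) at 24 h at its brightest probe (mm9, chromosome 5, bases 123134194 to 123134253). WT 24 h was not well above background. At this probe P2rx7 was at least 253-fold lower at 24 h in WT, and lower by −7.37 log2 (SE 0.22) in KO. With normexp the values were −5.66 and −6.08 log2, and with the mean of the 3 probes −5.63 and −6.39.

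The 3 P2rx7 probes were assigned to different transcript variants by the array's design, and all were lower at 24 h in both genotypes. The probe for variant 4 (chromosome 5 from 123105174 to 123105233) read −0.80, 0.24, −6.63 and −4.57, which is at least 41.2-fold lower at 24 h in WT and −4.81 log2 (SE 0.22) in KO. The probe for variant 2 read −2.64, −1.33, −7.87 and −8.33, the 24 h readings being at background, which is at least 11.5-fold lower in WT and 41.0-fold in KO. It is shown because its 60 letters stretch over 2886 bases of the genome (mm9, chromosome 5, bases 123120528 to 123123413), so it crosses at least 1 intron, which the other probes of the gene do not:
P2rx7 probe for variant 2: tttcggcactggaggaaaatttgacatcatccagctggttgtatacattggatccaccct
The crossing probe, well above background on both 0 h arrays, was dimmer there than the others. In KO its bound of −5.36 log2 lay past the −4.81 of the variant 4 probe and short of the −7.37 of the brightest. In WT all 3 probes gave bounds only, and a difference between the variants was not tested. Levels of different probes cannot be set against each other.

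**Figure D1:**
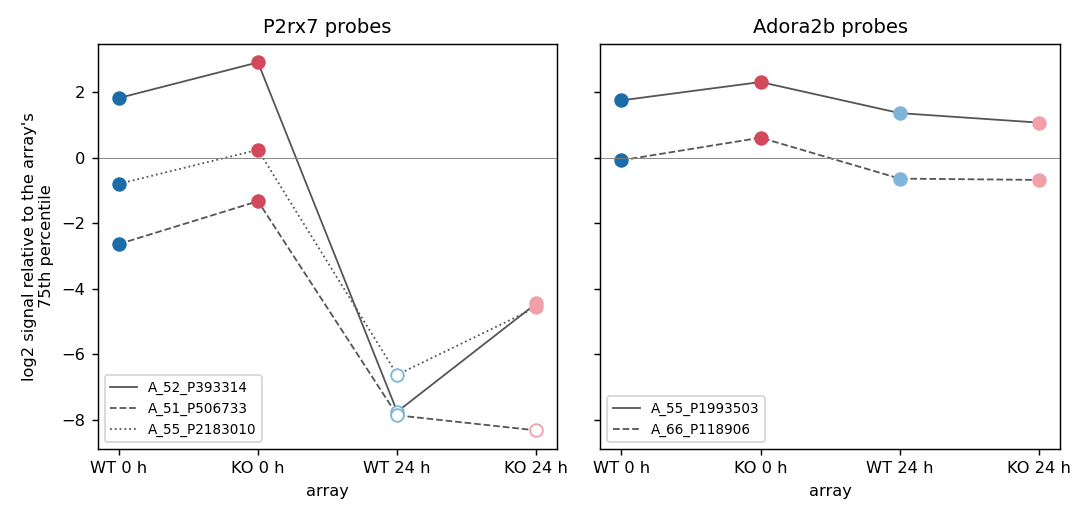
Log2 signal of each probe of P2rx7 and Adora2b on the 4 arrays, relative to the array's 75th percentile; open symbols are not well above background and lines join readings of 1 probe. All 3 P2rx7 probes are lower at 24 h than at 0 h, and the 2 Adora2b probes run side by side.

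Both P2Y receptors were bright at 0 h and dim at 24 h. P2ry1, the Gq-coupled ADP receptor, read −0.10 (WT) and 1.23 (KO) at 0 h, then −7.91 (WT) and −7.63 (KO) at 24 h (mm9, chromosome 3, bases 60812600 to 60812659). Neither 24 h reading was well above background, and P2ry1 was at least 66.7-fold lower at 24 h in WT and 243-fold in KO. With normexp these bounds were −3.46 and −4.76 log2. P2ry14, the receptor for UDP-glucose, read 1.61, 2.64, −7.57 and −5.78 (mm9, chromosome 3, bases 58918548 to 58918607). It was at least 219-fold lower at 24 h in WT, where it was not well above background, and lower by −8.42 log2 (SE 0.28) in KO, or −5.30 and −6.15 log2 with normexp.

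The ectonucleotidases differed in when they were seen, Entpd1 at 0 h and Nt5e on KO 24 h. Entpd1, which removes ATP and ADP, read −3.90 (WT) and −2.78 (KO) at 0 h, then −6.70 (WT) and −8.16 (KO) at 24 h (mm9, chromosome 19, bases 40816008 to 40816067). It was at least 4.79-fold lower at 24 h in WT, or −0.72 log2 with normexp, and at least 15.1-fold lower in KO, or −1.32 log2 with normexp. Nt5e, which makes adenosine, read −9.44, −6.87, −8.25 and −4.59 (mm9, chromosome 9, bases 88266616 to 88266675), with only KO 24 h well above background. There its signal was 31.1 ± 3.58 units (spot error), at least 4.53-fold that of KO at 0 h and at least 2.98-fold that of WT at 24 h. With normexp, whose offset of 50 units is larger than this signal, both bounds were below 2-fold, at 0.68 and 0.65 log2. With fibroblast centring the first was 0.85.

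Counted over the genes, 7 of the 8 with a value in WT were lower at 24 h (2 measured, 5 by at-least folds) and 0 higher, where 7.88% of 21076 genes were lower and 18.2% higher. In KO 8 of 9 were lower (6 measured, 2 by at-least folds) and 1 was higher, where 14.8% of 21458 genes were lower and 8.37% higher. The median difference was −6.16 in WT and −7.24 in KO with at-least folds at their bounds, against 0.27 and 0.083 for all genes. A gene that was well above background at 0 h only could enter these counts on the lower side alone, and Nt5e in KO on the higher side alone. Mast cell markers were lower in 19 of the 19 with a value in WT and in 20 of 20 in KO, and their part in the lower readings of these genes was not tested.

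**Figure D2:**
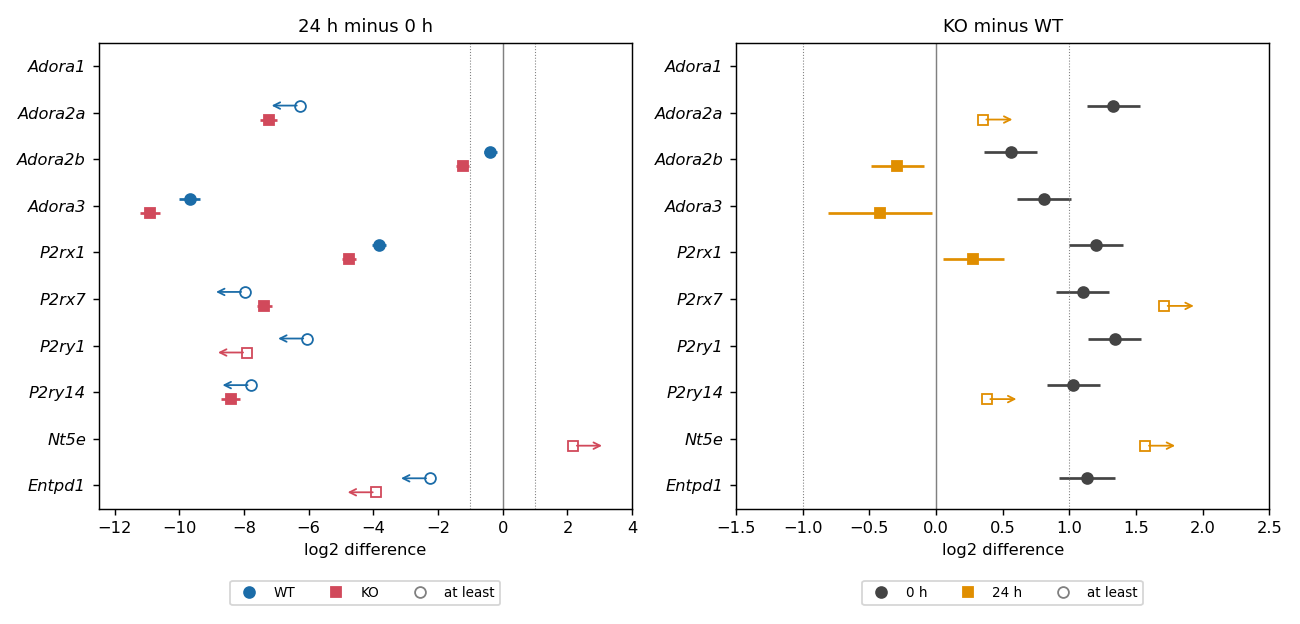
Log2 differences of the 10 genes between times (left, WT circles and KO squares) and between genotypes (right, 0 h circles and 24 h squares); bars are SE, open symbols with arrows are at-least differences, dotted lines mark 2-fold, and a missing symbol means not well above background on either array. On the left 8 genes lie below 0 in KO, Adora2b closest to it, and Nt5e lies above; on the right all 8 genes with a value at 0 h lie above 0.

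At 0 h, all 8 genes well above background were higher in KO than in WT, by 0.56 to 1.34 log2. Of these, 6 passed 2-fold, where 11.2% of 21863 genes were higher in KO and 4.54% lower, and their median was 1.11 against 0.063 for all genes. P2ry1 (1.34), Adora2a (1.33), P2rx1 (1.20), Entpd1 (1.13), P2rx7 (1.10) and P2ry14 (1.03) passed, with SEs of 0.20 to 0.21, and Entpd1 read 0.60 with normexp. Adora3 (0.81) and Adora2b (0.56), each with an SE of 0.20, did not. Mast cell markers were higher in KO 0 h as well, in 20 of 20, by a median of 0.95 over the 19 measured and with 8 of these past 2-fold. The 18 pan-leukocyte markers had a median of 1.05 with 14 past 2-fold, and the fibroblast markers a median of −0.36. Each array was also centred on the median level of the 12 mast cell markers well above background on all 4 arrays, 5.06 in WT and 5.69 in KO. The differences of the 8 genes were then −0.07 (Adora2b) to 0.70 (P2ry1) and 0 passed 2-fold, where 1.94% of all genes were higher and 19.5% lower. Such centring moves every gene by the same amount, and the part of mast cell RNA in these differences was not tested. With each array centred on 17 fibroblast markers the differences of the 8 genes were 1.88 to 2.66 and all 8 passed, as did 78.2% of all genes. The level subtracted was 2.53 in WT and 1.21 in KO, a larger gap than the fibroblast markers' median difference of −0.36. Fibroblast centring thus raised KO over WT by more than these markers themselves differed.

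**Figure D3:**
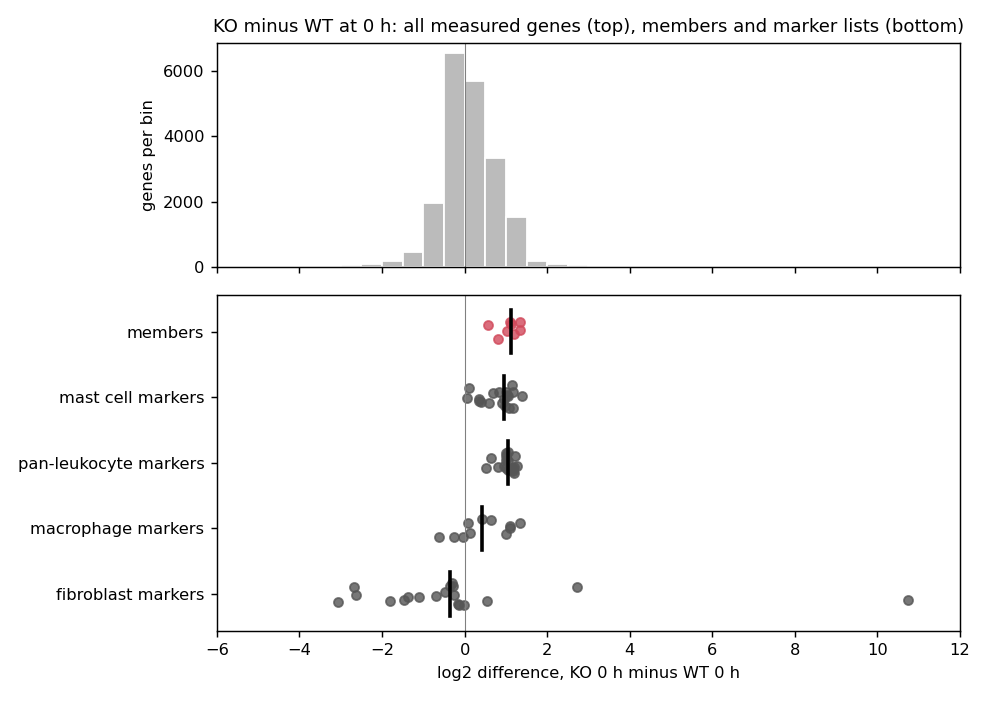
KO minus WT at 0 h on a log2 scale: number of measured genes per bin of width 0.5 (top) and each measured gene of the purine set and of 4 marker lists (bottom, vertical bars are medians). The purine genes (median 1.11) lie over the same range as mast cell (0.95) and pan-leukocyte (1.05) markers and apart from most fibroblast markers (−0.36); the fibroblast marker at 10.74 is Thy1.

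At 24 h, P2rx7 and Nt5e were higher in KO than in WT by at-least folds of 3.28 and 2.98, and no gene of the 10 was lower by 2-fold. These were 2 of 7 with a value, where 6.35% of 20663 genes were higher and 20.1% lower. P2rx7, Nt5e, Adora2a and P2ry14 were well above background on KO 24 h but not on WT 24 h. They could therefore enter this count on the higher side alone. Both were dim, at −4.45 and −4.59 on KO 24 h. With normexp the bounds were 0.72 log2 for P2rx7 and 0.65 for Nt5e, and with the mean of its 3 probes that of P2rx7 was 0.38, all below 2-fold. On KO 24 h the signals of P2rx7 and Nt5e were 34.2 and 31.1 units. The normexp offset of 50 units is larger than either, which leaves little room for 2-fold in that setting. The variant 4 probe of P2rx7 gave at least 3.02-fold, and the variant 2 probe gave no value. Adora2a and P2ry14 were at least 1.28-fold and 1.31-fold higher in KO. The genes measured on both arrays differed by −0.29 (Adora2b, SE 0.20), −0.42 (Adora3, SE 0.39) and 0.28 (P2rx1, SE 0.23), none past 2-fold, and Adora3 read 0.56 with quantile normalization. Mast cell markers had a median of 0.62 between these arrays over 12 measured.

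Between genotypes, the change with time could be compared in the 3 genes well above background on all arrays. The KO change minus the WT change was −1.23 (SE 0.44) for Adora3, −0.93 (SE 0.31) for P2rx1 and −0.85 (SE 0.29) for Adora2b. Only Adora3 passed 2-fold, where 13.3% of 17116 genes lay lower and 4.72% higher, and with quantile normalization its value was −0.36. For 11 measured pan-leukocyte markers the median was −0.91, and for 12 mast cell markers −0.02.

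The wider purine system was followed in 43 further genes, of which 11 gave a value in no comparison. Of 12 other P2 receptors, P2rx4, an ATP channel of endosomes and the cell surface, read 3.54, 4.20, 2.70 and 2.30, and was lower at 24 h by −1.89 in KO. P2ry2, a receptor for ATP and UTP, read −1.75, −0.91, −2.35 and −0.72, and was 1.63 higher in KO at 24 h. P2ry10 is on the list by its name and is not an established nucleotide receptor. It read −1.71, −0.55, −5.25 and −6.92, the last not well above background, and so was lower at 24 h, as the mast cell markers were. P2ry6 (−2.03) and P2rx6 (−1.94) were lower in KO at 24 h, but all their readings were at or below −4.45. With normexp these differences were −0.47 and −0.40. From 0 h to 24 h in WT both were higher, by 2.19 and 1.68, or 0.56 and 0.38 with normexp. Between times 7 of the 12 had a value in WT, 3 higher past 2-fold and 1 lower, where 18.2% of all genes were higher and 7.88% lower. In KO 8 had a value, 0 higher and 3 lower, beside 8.37% and 14.8% of all genes. With normexp 0 were higher and 2 lower in each genotype, beside 2.11% and 4.81% of all genes in WT and 4.83% and 7.63% in KO. In KO against WT at 24 h, 7 of the 12 had a value. Of these, 1 was higher past 2-fold and 3 lower, 1 of them (P2ry10) by its bound, where 6.35% of all genes were higher and 20.1% lower. With normexp 1 was higher and 0 lower, beside 4.03% and 3.54% of all genes.

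Of 11 other nucleotide-splitting enzymes, Entpd3, which like Entpd1 hydrolyses extracellular nucleotides, was bright at 0 h and low at 24 h. It read −1.80, −0.71, −5.39 and −7.12. Entpd2, which mainly turns ATP into ADP, had the opposite course in WT, at −4.59, −6.04, −2.39 and −5.89. KO differed from WT by −1.46 at 0 h (−0.48 with normexp) and −3.50 at 24 h (−1.74 with normexp). Entpd5 was 1.26 log2 higher in KO than in WT at 0 h, and 1.84 higher at 24 h. Enpp3, a surface pyrophosphatase known as a basophil and mast cell antigen, read −4.20, −2.99, −3.04 and −1.79, so that it differed between times by 1.16 in WT (0.77 with normexp) and 1.20 in KO, while the mast cell markers were lower. Centred on fibroblast markers, the KO value was −0.13. In KO against WT at 24 h, 8 of the 11 had a value, and 2 were higher past 2-fold and 2 lower, 1 of them by its bound, beside the same 6.35% and 20.1% of all genes. With normexp 1 was higher and 1 lower, beside 4.03% and 3.54% of all genes.

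Genes of adenosine transport and turnover mostly differed by less than 2-fold. Of 14, 10 were measured between times in each genotype, within −0.60 to 0.74 in WT and −0.63 to 0.86 in KO. None of the 10 passed 2-fold, where 18.2% of all genes were higher and 7.88% lower in WT, and 8.37% higher and 14.8% lower in KO. With the mean of a gene's probes 1 was higher past 2-fold in WT (Pnp, 1.09). With quantile normalization 1 was higher in KO (Slc29a2, 1.15), as were 13.1% of all genes. With fibroblast centring 6 of the 10 were lower past 2-fold in KO, within −1.96 to −0.47, as were 63.3% of all genes. Ada, which breaks adenosine down to inosine, read 1.13, 1.34, 0.78 and 1.03. Adk, which returns adenosine to AMP, read 3.32, 3.44, 3.48 and 3.14. Between genotypes, Slc29a2, a nucleoside transporter, was 1.93 higher in KO at 24 h (1.29 with normexp), and it was the only one of the 14 past 2-fold there.

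Among 6 genes of ATP release, Slc17a9, the vesicular nucleotide transporter, read −1.79, −0.56, −4.99 and −4.38. Between the times it differed by −3.19 for WT and −3.82 for KO, and the mast cell markers were lower too. The channels Panx1 (pannexin 1) and Gja1 (connexin 43) were higher in KO at 24 h by 1.48 and 1.25. Panx2 was lower by −1.27, or −0.36 with normexp. Panx1 and Gja1 were also higher at 24 h than at 0 h in KO, by 1.14 and 1.03, but with fibroblast centring these differences were −0.19 and −0.30.

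**Figure D4:**
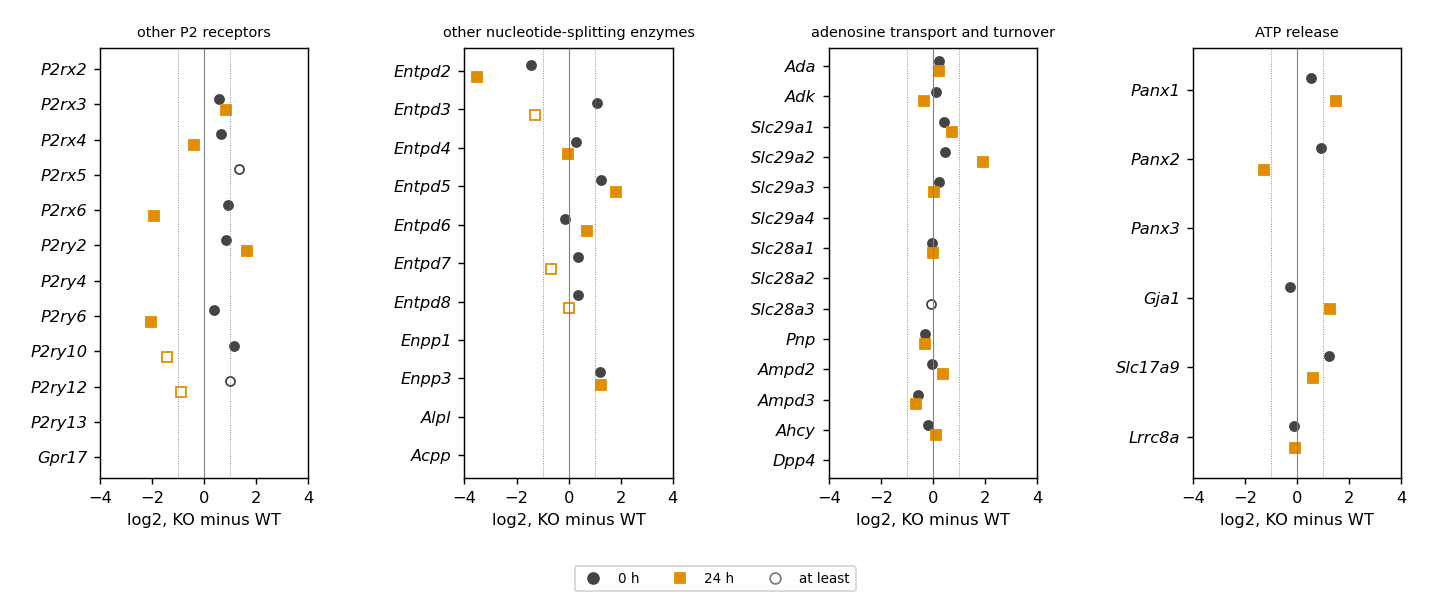
KO minus WT log2 differences of 43 further purine genes in 4 groups, at 0 h (circles) and 24 h (squares); open symbols are at-least differences, dotted lines mark 2-fold, and genes without a symbol were not well above background on either array. The transport and turnover genes lie near 0 except Slc29a2 at 24 h (1.93), and Entpd2 lies lowest at 24 h (−3.50).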

How the data were processed

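Per the file headers, the authors' spot intensity comes from Agilent Feature Extraction 12.1.1.1, detrended within each array and unscaled between arrays. In the deposited value table each entry is a ratio of that signal to the array's 75th percentile. Probe positions are of mouse build mm9, per the file headers. Control spots and outlier spots were left out, signals were taken to log2, and the 75th percentile over 43020 non-control spots was subtracted. Replicate spots were averaged, and 29110 of 39429 probes took their name from the RefSeq gene table (GRCm38.p6), the others from the array file. No member spot was flagged or saturated. Normexp (offset 50) and quantile normalization used limma 3.58.1 (R 4.3.3), the rest Python 3.11.15.

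The script that makes the measured and at-least calls was checked on simulated data. The members and lists were chosen with earlier results of these data known. Named genes are the members, the wider purine genes 2-fold apart (up to 4 at each end of a comparison, not all of which are described) and, for members spanning over 2 log2 on all arrays, the 3 nearest patterns; Ada and Adk were named after their values were seen. The number of arrays limits the precision.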

Additional observations from a re-analysis of the deposited data

How the results depend on the processing

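No paired analysis was possible because each group has 1 array, and for the same reason no array could be left out. The authors' table gave the same counts. Of the 7 genes called between times in WT, 2 were called with the stricter filter on dim probes and 2 when at-least folds were not counted; of 9 in KO, 3 with the stricter filter. Of the 6 called between genotypes at 0 h, 1 was called with the stricter filter and 0 with centring on mast cell markers, an alternative chosen after seeing the data. All 6 were well above background on both 0 h arrays, and of them only P2rx1 was so on all 4 arrays. For the 2 called between genotypes at 24 h, the count was 4 with quantile normalization, 0 with normexp, 1 with the mean of a gene's probes, 4 with no filter, 0 with the stricter filter and 0 without at-least folds. Of all genes, 9.18% were higher and 9.08% lower with quantile normalization, and 4.03% and 3.54% with normexp. The normexp offset is larger than the KO 24 h signals of these 2 genes. For the 1 gene called in the difference of changes, the count was 0 with quantile normalization, 0 with normexp, 2 with the percentile of detected probes, 3 with fibroblast centring, 6 with no filter and 3 at 1.5-fold. Of all genes, 8.81%, 3.87%, 14.4% and 62.5% were lower in the first 4 of these settings. Higher were 7.37%, 2.74%, 3.76% and 0.374%. Shares of all genes are not given here for the other settings. The filter alternatives change which genes enter; the cause of the others was not tested.

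No called difference of the 10 genes changed sign under the 6 planned scalings and probe rules. Quantile normalization moved the share of higher calls over all genes from 69.8% to 56.8% (times, WT), 36.2% to 54.9% (times, KO), 71.2% to 55.5% (genotypes, 0 h), 24.0% to 50.3% (genotypes, 24 h) and 26.2% to 45.6% (difference of changes). Normexp gave 30.5%, 38.8%, 59.1%, 53.2% and 41.5% in the same order. Fibroblast centring moved the median of all measured genes from 0.23 to −1.1 (times, KO), from 0.06 to 1.38 (genotypes, 0 h) and from 0.03 to −1.16 (difference of changes), and higher calls to 0.43%, 98.8% and 0.595% of calls. In these comparisons the level that fibroblast centring subtracts shifted by more than the fibroblast markers' own median difference. Signal over background limits the 24 h readings other than those of Adora2b and P2rx1.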
